A study of Mus musculus with 2 samples.

Results

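Tendon and joint tissue have a small set of characteristic transcripts, and 7 of them were followed here in the fetal mouse ureter: Scx, Mkx, Tnmd, Fmod, Thbs4, Comp and Prg4. They were found by the gene name given to each probe on the array, which yielded 8 probes of 39429, on 17 of the 43020 probe spots of each array. Prg4 had 2 probes, each other gene had 1, and the Tnmd probe was printed as 10 spots. The genes were picked with results of the same comparison already known, so their values are given as a description, and no test of them is offered as support.

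Ureters were dissected from NMRI mouse embryos at E18.5, shortly before birth. Rbpj-cKO embryos carried Tbx18(cre/+);Rbpj(fl/fl), in which a cre recombinase made from the Tbx18 locus acts on both floxed Rbpj alleles. Control embryos carried Rbpj(fl/?) and their labels list no cre, so at least 1 floxed allele was common to both groups, and the cre allele of Tbx18 was carried by Rbpj-cKO embryos alone as far as the labels say. Tbx18 is expressed in the mesenchyme that surrounds the ureteric epithelium, and Rbpj is the DNA-binding partner of the Notch receptors. There were 2 arrays with 2 colours each: on the male array the Rbpj-cKO RNA was read in red and the control RNA in green, and on the female array the dyes were exchanged. The sex of the embryos and the orientation of the dyes therefore change together between the arrays and cannot be told apart. The number of embryos behind each RNA is not in the labels. The arrays differ in embryos and sex as well as in dye orientation, so their spread cannot be split into biological and technical parts.

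Tendons arise from cells that switch on the transcription factor Scx, and such cells later make the membrane protein tenomodulin (Tnmd) and a matrix of aligned collagen fibrils. Mkx, a homeodomain factor, keeps collagen production going in tendon. Fibromodulin (Fmod) binds collagen fibrils and sets their width, the pentameric thrombospondins Thbs4 and Comp bind matrix proteins in tendon and cartilage, and lubricin, the product of Prg4, coats joint and tendon surfaces. None of these genes is a standard marker of the ureter, whose wall consists of urothelium, fibroblasts and smooth muscle.

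The probes for ureter tissue behaved as the label says: 8 of 8 urothelial and 7 of 7 smooth muscle markers were well above background in both groups on both arrays. No probe spot was saturated, and between 66.8% and 71.1% of probe spots were well above background in the 4 channels. Over the 20989 features tested, the ratios of the arrays had a Pearson correlation of -0.178 (across genes, which are not independent replicates). For Rbpj, the targeted gene, the log2 ratio was -1.58 (male array) and -0.93 (female array), with a limma adjusted p of 0.0760.

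Of the 7 genes, Prg4, Tnmd, Scx and Mkx were lower in Rbpj-cKO ureters on both arrays, Fmod was slightly higher on both, and Thbs4 had opposite signs on the arrays. For Prg4 this holds at the brighter of its 2 probes, and the signal of Comp was too low to read a direction. Levels below are log2 intensities after normalization, given for Rbpj-cKO RNA and then for control RNA, and each ratio is log2 of Rbpj-cKO over control. A mean is over the 2 arrays, and 6 of the 7 genes had a probe that passed the filter on dim probes. The plot of levels shows the separation of the groups for each probe.

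**Figure D1:**
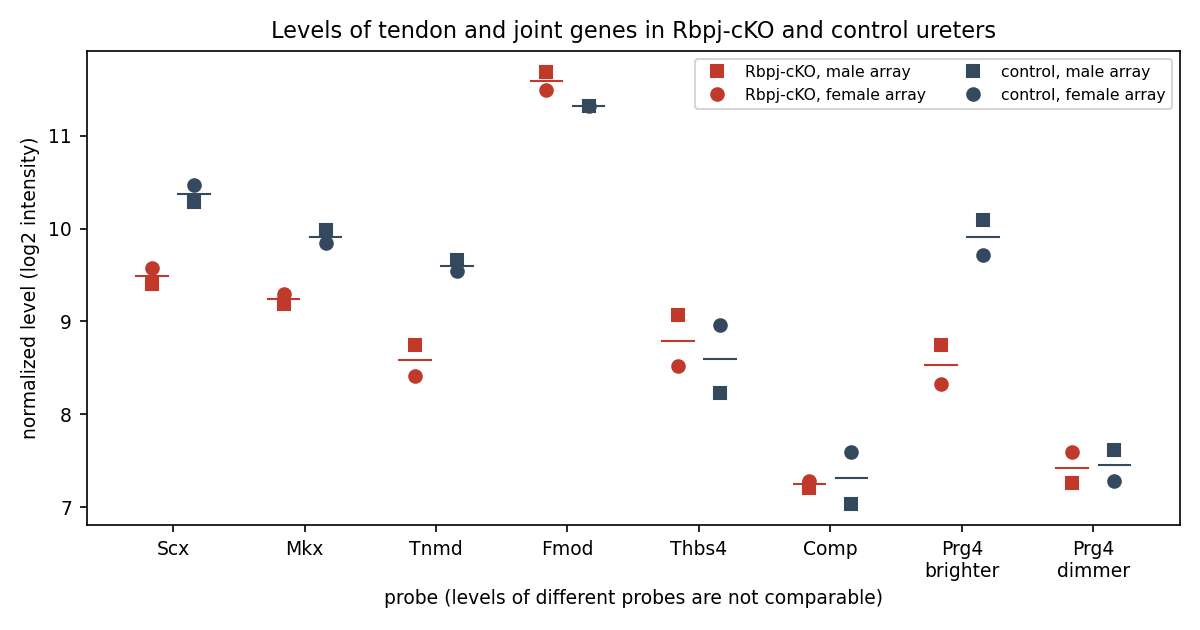
Normalized level (log2 intensity) of each probe in Rbpj-cKO (red, left) and control (dark, right) ureters. Squares are the male array, circles the female array and bars the mean of both arrays. Rbpj-cKO points lie below both control points for Scx, Mkx, Tnmd and the brighter Prg4 probe, and groups overlap for Thbs4, Comp and the dimmer Prg4 probe.

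The tendon transcription factors were both lower. Scx, the helix-loop-helix factor that marks tendon progenitors, had levels of 9.40 (male array) and 9.57 (female array) in Rbpj-cKO ureters, against 10.28 and 10.47 in control ureters. Both Rbpj-cKO values lay below both control values. The log2 ratio was -0.88 (male array) and -0.90 (female array), with a mean of -0.89 and an SD of 0.02 (n = 2), or 1.85-fold lower. The mean of red over green, in which a true difference between the groups cancels, was 0.01. The Scx probe lies on chromosome 15 at 76289708 to 76289767 (mm9, plus strand).

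Mkx had levels of 9.19 and 9.29 in Rbpj-cKO ureters and 9.99 and 9.84 in control ureters. Again the groups did not overlap, but the difference was smaller than for Scx. Its log2 ratio was -0.80 (male array) and -0.55 (female array), with a mean of -0.67 and an SD of 0.17 (n = 2), which is 1.60-fold lower. On the female array the ratio fell short of 1.5-fold. Its probe is on chromosome 18 at 6935183 to 6935242 (mm9, minus strand).

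Tnmd, a type II membrane protein of mature tendon cells that Scx is known to activate in tendon, was measured more often than any of the others. Averaged over its 10 spots, its level was 8.75 and 8.42 in Rbpj-cKO ureters and 9.66 and 9.54 in control ureters. Rbpj-cKO values again lay below both control values. The log2 ratio was -0.91 (male array) and -1.12 (female array), with a mean of -1.02 and an SD of 0.15 (n = 2), or 2.02-fold lower. The gene is X-linked, with the probe on chromosome X at 130397487 to 130397546 (mm9, plus strand), and each array compared embryos of one sex. The probe sequence is shown because all 10 spots carry it:

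Tnmd probe: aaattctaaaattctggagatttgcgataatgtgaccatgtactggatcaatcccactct

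The 10 spots of this probe are repeated readings of the same labelled RNA and count as 1 replicate. On the male array the Rbpj-cKO signal before normalization ranged over the spots between 465.4 and 529.8 (median 490.6), and the control signal between 636.1 and 791.0 (median 694.6). On the female array it was 183.9 to 325.1 (median 234.1) in the Rbpj-cKO channel and 681.8 to 910.2 (median 780.7) in the control channel. Each of the 10 spots on each array was lower in Rbpj-cKO RNA, with log2 ratios of -1.002 to -0.83 on the male array and -1.27 to -0.92 on the female array.

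The spots differed by their place on the array. The 6 Tnmd spots in the first 266 of the 532 rows had ratios of -0.91 to -0.83 (male array) and -1.27 to -1.16 (female array). The 4 spots in the later rows had -1.002 to -0.95 (male array) and -1.01 to -0.92 (female array). Expressed as red over green, both arrays were lower in the later rows, with differences of -0.11 (male array) and -0.26 (female array). Because the dyes were exchanged, these shifts partly offset each other in the mean of the arrays, which ran from -1.08 to -0.93 over the 10 places (SD 0.05). The split by rows was chosen after the spots were seen. The SD of the Tnmd spots was 0.06 on the male array, where 85.2% of 317 probes printed as 10 spots had a smaller one (median 0.04). On the female array it was 0.14, and 50.3% of 316 such probes had a smaller one (median 0.14). In Agilent's processed signals, which include spatial detrending, the spots spread over -1.28 to -1.15 and -1.43 to -1.25.

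**Figure D2:**
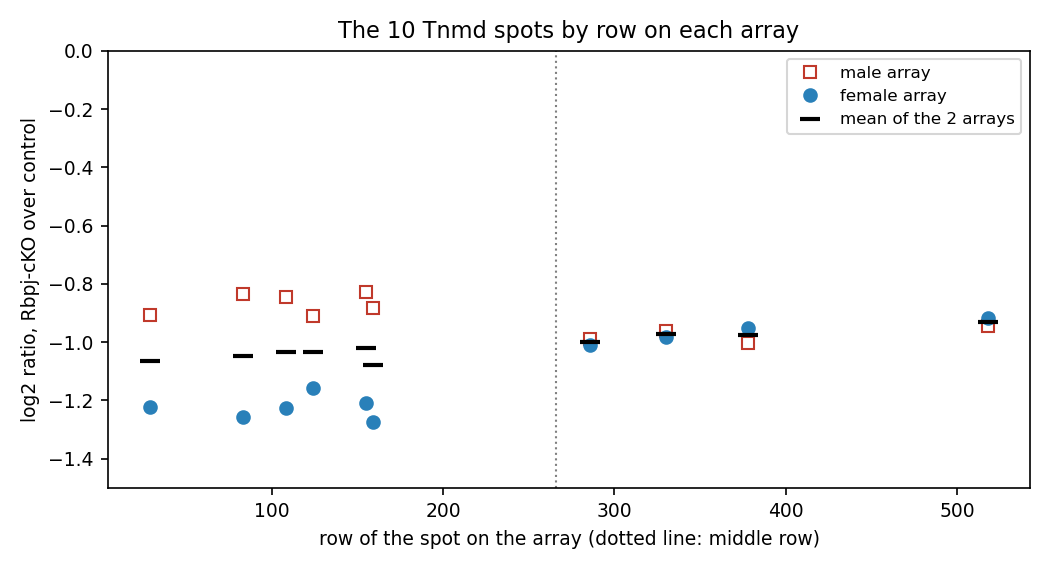
Log2 ratio of Rbpj-cKO over control for each of the 10 Tnmd spots, by row on the array, with open squares for the male array, filled circles for the female array and bars for their mean. In the first 266 rows the female array lies below the male array, and in the later rows the arrays overlap between -1.01 and -0.92.

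Of the 3 tendon and cartilage matrix genes, Fmod and Thbs4 were not lower on both arrays, and Comp could not be read. Fmod, a small leucine-rich proteoglycan, had levels of 11.68 and 11.49 in Rbpj-cKO ureters, against 11.32 and 11.32 in control ureters. Both Rbpj-cKO values were the higher ones, by little. The log2 ratio was 0.36 (male array) and 0.17 (female array), with a mean of 0.26 and an SD of 0.14 (n = 2). Its probe is on chromosome 1 at 135943998 to 135944057 (mm9, plus strand).

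Thbs4, a thrombospondin that is abundant in tendon and in muscle attachments, had levels of 9.07 and 8.52 in Rbpj-cKO ureters and 8.23 and 8.96 in control ureters. The groups overlapped, since Rbpj-cKO RNA gave the higher value on the male array and the lower one on the female array. Log2 ratios were 0.84 and -0.45, with a mean of 0.20 well inside their SD of 0.91 (n = 2). Red exceeded green on both arrays, with a mean red over green of 0.64. Its probe is on chromosome 13 at 93521565 to 93521624 (mm9, minus strand).

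Comp, the cartilage oligomeric matrix protein, could not be followed with confidence at this signal. Its levels were 7.21 and 7.29 in Rbpj-cKO ureters and 7.04 and 7.60 in control ureters, and the probe was well above background on 1 of 2 arrays in each group, so it did not pass the filter. On the male array the mean spot signal was 149.2 in the Rbpj-cKO channel over a background of 86, and 69.8 in the control channel over a background of 34. The log2 ratio was 0.17 (male array) and -0.31 (female array), and neither direction can be read. The Comp probe of 60 bases covers 134 bases of chromosome 8, from 72905692 to 72905825 (mm9, plus strand), so its positions in the genome are not contiguous.

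Prg4, the joint lubricant, had the lowest ratio among the genes followed, at 1 of its 2 probes. At the brighter probe its levels were 8.75 and 8.32 in Rbpj-cKO ureters, against 10.09 and 9.72 in control ureters. Both Rbpj-cKO values lay more than 1 log2 unit below their control on the same array. The log2 ratio was -1.35 (male array) and -1.40 (female array), with a mean of -1.37 and an SD of 0.04 (n = 2), or 2.59-fold lower. The mean signal of this probe before normalization was 484.6 and 218.3 in the Rbpj-cKO channel, over backgrounds of 80 and 31, and 964.2 and 883.5 in the control channel, over backgrounds of 29 and 89.

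The dimmer Prg4 probe did not match the brighter one. It had levels of 7.26 and 7.59 in Rbpj-cKO ureters and 7.62 and 7.28 in control ureters, so the groups overlapped. Its log2 ratio was -0.36 (male array) and 0.31 (female array), with a mean of -0.02 and an SD of 0.48 (n = 2). On each array it was well above background in the green channel and not in the red one, whichever RNA the green channel held, and its mean red over green was -0.34. Its mean signal in the green channel was 132.6 (control, male array) and 113.6 (Rbpj-cKO, female array). Since it did not pass the filter, the brighter probe alone stood for Prg4. Averaging both probes, an alternative chosen after seeing the data, gave -0.85 (male array) and -0.54 (female array), with a mean of -0.70, which is short of 1.5-fold on the female array.

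Both Prg4 probes lie on the minus strand of chromosome 1, the brighter one at 152297067 to 152297126 (mm9). Where they lie within the transcript was not analysed here. Bases 26 to 55 of the brighter probe are shown because the lower Prg4 ratio rests on it:

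Prg4 brighter probe: agaagagtcatcaaaatgaaatgaagaaaa

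The GC content was 35% in both Prg4 probes, against a median of 41.7% over all probes, and between 31.7% and 55% in the 8 probes.

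Set among all features, 91 of 20989 (0.434%) were at least 1.5-fold lower in Rbpj-cKO ureters on both arrays, and Prg4, Tnmd and Scx were among them. Mkx missed this on the female array alone. In the limma fit 27 of 20989 features (0.129%) passed at an adjusted p under 0.05, 18 of them (0.0858%) lower and 9 (0.0429%) higher. Prg4, through its brighter probe, was the 1 tendon and joint gene among them. Prg4 was no longer called with Agilent's processed signals, with median centring, with the deposited value table, without a filter on dim probes or when a gene's probes past the filter were averaged. The processed signals and the deposited value table hold nearly the same ratios for most probes past the filter, so they are not separate checks. Ratios were below 0 on both arrays for 19.7% of features and 4 of the 6 tested genes, above 0 on both for 21.7% and 1 gene (Fmod), and of opposite sign for 58.6% and 1 gene (Thbs4). Both Rbpj-cKO levels lay below both control levels for 12.5% of features and for 4 of the 6 tested genes, and above for 14.9% of features and 1 of the 6. Since the genes were picked on this same comparison, nothing is read from these counts. In the order of mean ratios from the lowest, Prg4 stood at 13, Tnmd at 36, Scx at 55 and Mkx at 133 of 20989, while Thbs4 and Fmod stood at 18512 and 19602. The median over the 6 was -0.78, against 0.01 over all features.

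**Figure D3:**
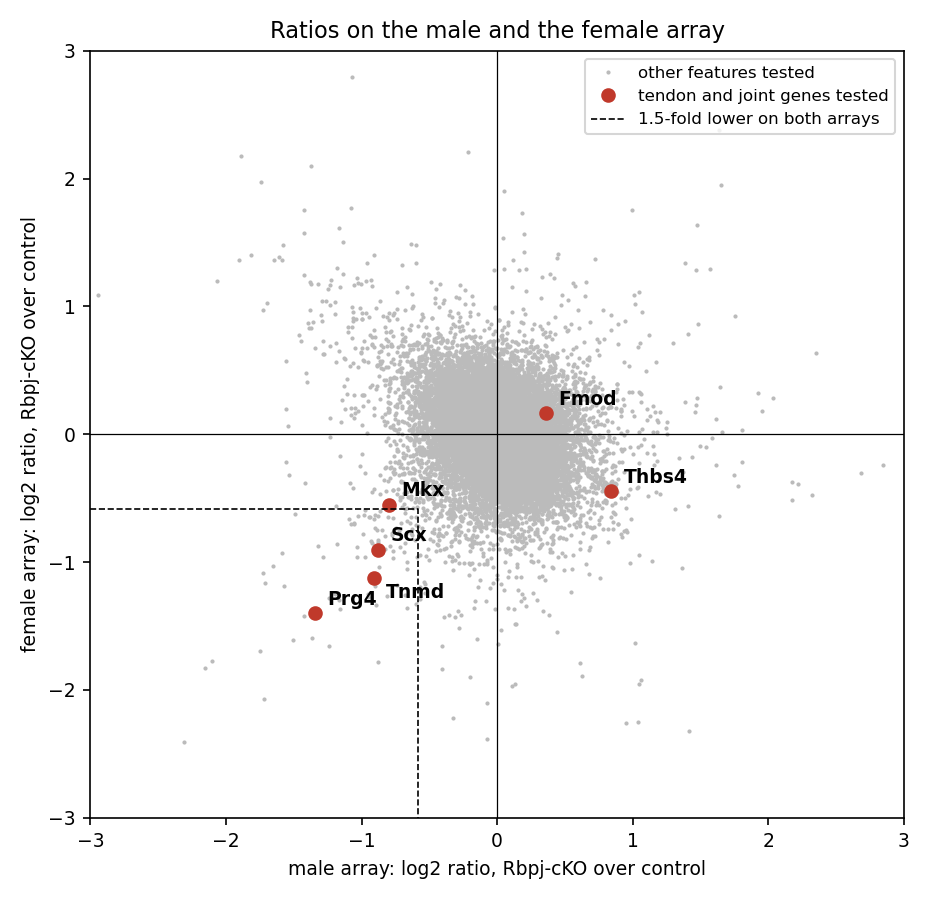
Log2 ratio of Rbpj-cKO over control on the male array (x axis) and the female array (y axis) for the 20989 features tested, with 6 features outside the axes. Red points are the 6 tendon and joint genes tested. Prg4, Tnmd and Scx lie inside the dashed corner of 1.5-fold lower on both arrays, Mkx lies just above it, and Thbs4 lies where the arrays disagree.

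The features with the most similar pair of ratios were sought by Euclidean distance over the 2 arrays. Nearest to Prg4 were the muscle creatine kinase Ckm (distance 0.08, with -1.42 and -1.43 on the arrays), Pcp4l1 (0.16) and the myosin Myo18b (0.19). Nearest to Scx were Acsbg3 (0.04), Ddx6 (0.05) and the fast troponin Tnnc2 (0.06). Tnmd had Dpp8 (0.06), Cntfr (0.09) and Scrt1 (0.14), and Mkx had Slmap (0.02), Htra4 (0.03) and Tcerg1l (0.09). For Fmod these were A430106A12Rik, Evpl and Os9, all within 0.01, and for Thbs4 they were Gm2509, Gm9468 and Gcnt3, within 0.03. With 2 values per gene, such likeness describes these arrays only.

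The ratios of the lower genes kept their sign under every other way of processing that alters a probe's ratio, as shown in the plot by processing. With Agilent's processed signals, the brighter Prg4 probe had -1.72 (male array) and -1.77 (female array), Tnmd had -1.21 and -1.34, Scx -1.06 and -0.88, and Mkx -0.98 and -0.47. These are further from 0 than with the added offset of 50 for all but the female-array values of Scx and Mkx. Thbs4 stayed split, with 1.28 and -0.73, as did the dimmer Prg4 probe, with -1.01 and 0.60. Comp had 0.81 and -1.33 there, and its value in the deposited value table was 0 on the male array.

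**Figure D4:**
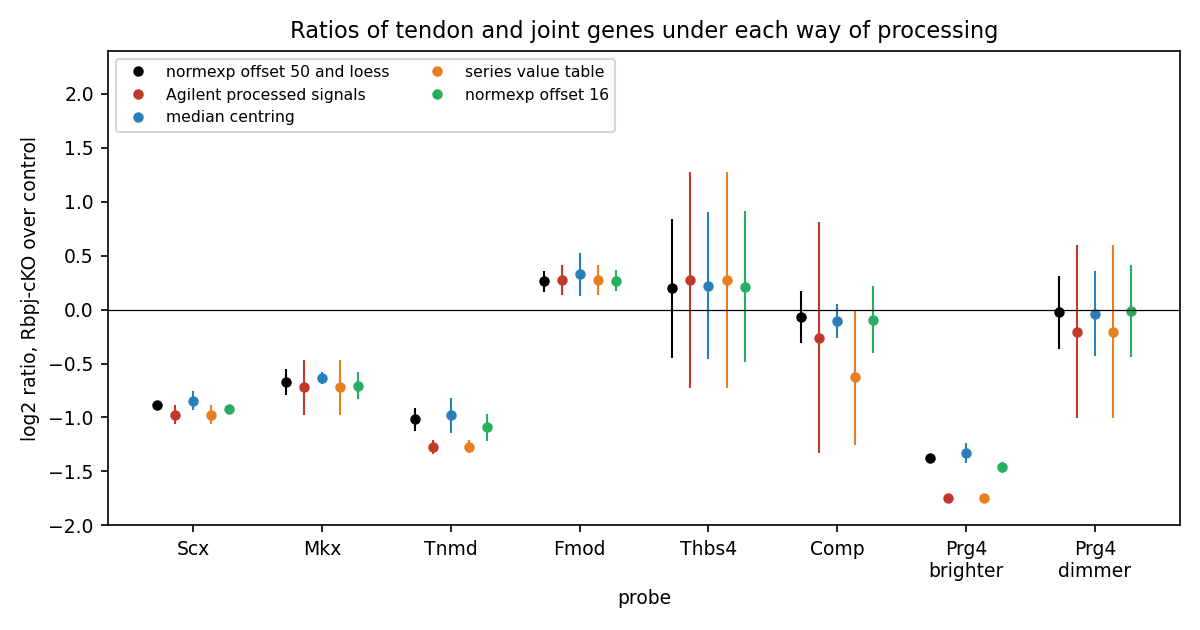
Log2 ratio of Rbpj-cKO over control of each probe under the 5 ways of processing, with points for the mean of the arrays and lines from one array's value to the other. Scx, Mkx, Tnmd and the brighter Prg4 probe stay below 0 on both arrays, Fmod stays above 0, and Thbs4, the dimmer Prg4 probe and Comp span or touch 0.

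Among other genes of tendon, none of the lists below held a gene past the test. Of 18 further regulators of tendon formation, 17 were measured, and 0 passed the limma test over all features (lowest adjusted p 0.102). At an unadjusted limma p under 0.05 there were 3, with Egr1 lower and Six2 and Bmp4 higher. Over the 17 measured, the median log2 ratio was 0.03. Egr1 and Egr2, zinc finger factors that activate collagen genes in tendon, had -0.53 and -0.42, and Spry1, a feedback inhibitor of FGF signalling, had -0.30. The homeobox gene Six2 had 1.17, with 1.48 (male array) and 0.86 (female array), the growth factor gene Bmp4 0.56 and the ETS factor Etv4 0.30. Six2 was the 1 gene of this list at least 1.5-fold higher on both arrays, as were 0.205% of all features.

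Of 28 tendon matrix genes 26 were measured, with a median log2 ratio of 0.00, and 0 passed (4 unadjusted, all lower; lowest limma adjusted p 0.289). On the male array the median was 0.14 and on the female array -0.20. The type I collagen gene Col1a2 had a mean of 0.39, with 0.82 (male array) and -0.04 (female array), and the procollagen enhancer Pcolce2 and decorin (Dcn) had 0.36 and 0.34. Dermatopontin (Dpt) had a mean of -1.05, with -0.20 and -1.90. Asporin (Aspn), a leucine-rich proteoglycan close to decorin, had -1.05 (male array) and -0.69 (female array), with a mean of -0.87, and tenascin-X (Tnxb) had -0.49 and -0.61 (mean -0.55).

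Structural relatives of the followed genes, of which 9 also belong to the matrix or joint lists, varied in both directions. Of 21 genes 20 were measured and 0 passed (4 unadjusted, all lower; lowest limma adjusted p 0.289). The median log2 ratio was -0.23, with 0.03 (male array) and -0.34 (female array). Aspn was the lowest, followed by Irx3, a homeodomain factor of the same superclass as Mkx, with -0.64, and keratocan (Kera), with -0.53. The highest were Dcn, lumican (Lum, 0.24) and podocan (Podn, 0.21, with 0.57 on the male array and -0.15 on the female array). Among relatives named after their values were seen, Cnmd, the chondromodulin gene closest to Tnmd, had 0.68 (male array) and -0.65 (female array). The thrombospondin genes Thbs1, Thbs2 and Thbs3 had means of -0.42, 0.19 and -0.28. For Thbs3 the arrays had opposite signs, with 0.18 (male array) and -0.74 (female array).

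Joint and cartilage genes did not all have a probe past the filter. Of 31, 24 were measured, and those that did not pass the filter on dim probes were Acan, Col10a1, Col9a3, Erg, Matn1, Matn3 and Ucma. The median log2 ratio was -0.08, and 0 passed the limma test (3 unadjusted, all lower; lowest adjusted p 0.745). The link protein gene Hapln1 had -0.73 (-1.09 and -0.38), the joint interzone ligand Gdf5 had -0.51 (-0.17 and -0.85), and the cartilage regulator Sox9 had -0.47 (-0.26 and -0.68). The protease gene Htra1 and the cartilage collagen gene Col2a1 each had 0.33, and Wnt4 had 0.31. For Col2a1 the arrays had opposite signs (-0.02 and 0.67).

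**Figure D5:**
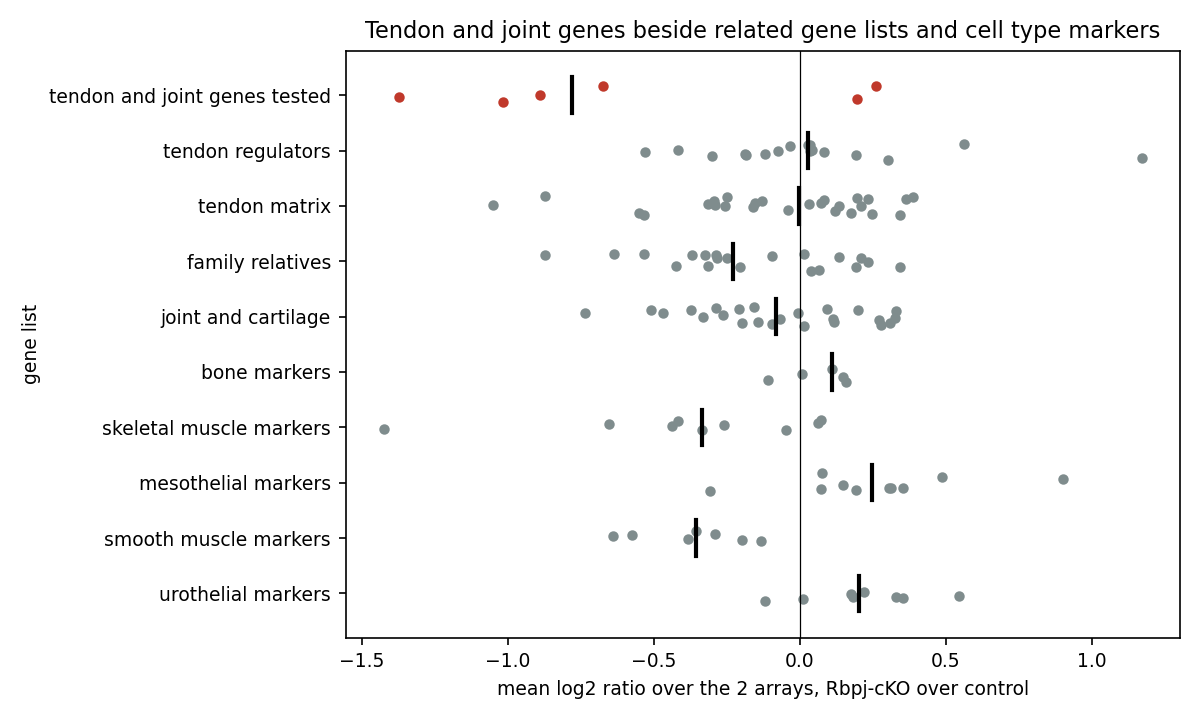
Mean log2 ratio over the arrays of each gene of the lists (points, with scatter up and down only for visibility) and the median of each list (black bars). The median of the 6 tendon and joint genes tested, chosen on this comparison, is -0.78, and those of the tendon, relative and joint lists lie between -0.23 and 0.03.

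Markers of other tissues that could be dissected with the ureter are given beside these values. In whole tissue, fewer cells of a type and less RNA per cell cannot be told apart. The summed normalized intensity of 13 skeletal muscle markers was 20249 and 20236 in Rbpj-cKO ureters, against 28796 and 25473 in control ureters. In each group 9 of these markers stood well above background on each array, and the myogenic factor genes Myod1 and Myf5 were not well above background in any channel. Of the 9 measured, Ckm passed the limma test (mean log2 ratio -1.42, adjusted p = 0.0203), and the median was -0.33. At an unadjusted limma p under 0.05 there were 3, all lower. On both arrays 5 of the 9 were below 0 (19.7% of all features) and 0 above (21.7%). At least 1.5-fold lower on both arrays were Ckm and Casq1, the skeletal calsequestrin, as were 0.434% of all features. Ckm was not called in the same 5 settings as Prg4, and its adjusted p over the 8 settings ranged from 0.00822 to 0.988. Casq1 had a mean of -0.65, and Myf6 and Actn3 had 0.07 and 0.06, each with opposite signs on the arrays.

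The 7 smooth muscle markers summed to 605710 and 606840 in Rbpj-cKO ureters and 768670 and 697020 in control ureters. All 7 were below 0 on both arrays, as were 19.7% of all features, and 0 passed the limma test (2 unadjusted, median -0.35). The lowest were Des (-0.64) and Actg2 (-0.58), and the highest were Tagln (-0.13) and Acta2 (-0.20). Urothelial markers, 8 in number, summed to 788940 and 836640 in Rbpj-cKO ureters and 651230 and 698290 in control ureters. Of these 8 markers, 6 were above 0 on both arrays, as were 21.7% of all features.

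For mesothelium, sums and ratios differed in direction on the female array. Its 10 markers summed to 211310 and 230050 in Rbpj-cKO ureters and 190870 and 171880 in control ureters. The median ratio was 0.76 (male array) and -0.21 (female array). A sum is weighted to the brightest genes, so the higher sums do not show that mesothelial markers in general were kept or raised. Krt19, named after its values were seen, had 0.01 (male array) and 0.61 (female array), the highest female-array ratio of the 10. Of the highest, Rspo1 had 2.17 (male array) and -0.37 (female array), and Muc16 had 1.18 and -0.21. Of the lowest, Lrrn4 had 1.01 and -1.63, and Aldh1a2 had 0.02 and 0.13. The arrays thus had opposite signs for Rspo1, Muc16 and Lrrn4. The sum of the 7 bone markers was 9401 and 9170 in Rbpj-cKO ureters and 7505 and 9524 in control ureters, and Runx2 and Dmp1 were not well above background in any channel. The part of muscle, urothelium, mesothelium or bone in the ratios of Scx, Mkx, Tnmd and Prg4 was not tested.

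RefSeq promoter windows (GRCm38.p6) were at hand for 3 of the 7 genes, namely Tnmd, Fmod and Thbs4. They were searched over the 250 bases before the start for the E-box CANNTG, the element that helix-loop-helix factors such as Scx bind, and for TGGGAA, the core of the element that the Rbpj protein binds, on both strands. The windows of Tnmd (chrX:133850758-133851007, plus strand) and Fmod (chr1:134037004-134037253, plus strand) are shown as those of a gene with low ratios and of a gene without, with E-box matches in capitals:

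Tnmd: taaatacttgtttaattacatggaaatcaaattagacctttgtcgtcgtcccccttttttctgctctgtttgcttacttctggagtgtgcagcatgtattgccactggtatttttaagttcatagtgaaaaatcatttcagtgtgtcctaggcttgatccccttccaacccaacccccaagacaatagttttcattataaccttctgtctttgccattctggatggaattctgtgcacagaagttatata
Fmod: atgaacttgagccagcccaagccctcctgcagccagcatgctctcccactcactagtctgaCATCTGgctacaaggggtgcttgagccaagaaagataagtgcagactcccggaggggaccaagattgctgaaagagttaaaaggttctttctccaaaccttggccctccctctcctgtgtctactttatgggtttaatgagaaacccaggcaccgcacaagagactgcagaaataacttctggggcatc

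The Fmod window held 1 E-box match and the Thbs4 window held 1, the Thbs4 window also held TGGGAA 1 time, and the Tnmd window held neither. Over all 32851 promoter windows of this length, 66.2% held an E-box match and 21.6% held TGGGAA. A window without a match says only that the letters are not in these 250 bases.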

How the data were processed

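The intensity of each spot was deposited as scanned with Agilent Feature Extraction 10.7.3.1, per the submitters' processing notes. The mean and background intensity are raw per the file headers, the processed intensity is background-subtracted, detrended and dye-normalized, and the log10 ratio is of red over green. The deposited value table holds a score per probe; how it was made is not stated in the labels or headers. Turned to log2, it equalled the processed ratio of Rbpj-cKO over control within 0.001 for 98.8% (male array) and 99.0% (female array) of 25904 probes. These were the probes of 1 spot that passed the filter, so dim probes such as that of Comp were not compared. Its column medians were 1, and no step of centring is stated for it. For the probes that were equal, it held no shift beyond that of the processed ratio.

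Mean signals were corrected with normexp (offset 50) and normalized by loess array by array, giving control spots weight 0 (limma 3.58.1, R 4.3.3). Outlier spots (200 and 274) were dropped before averaging each probe's spots. Channel levels were scaled between arrays with Aquantile. Probes well above background on both arrays in either group were kept, and the brightest probe stood for a gene. RefSeq accessions (GRCm38.p6 table) gave names to 26412 of the 39429 probes, and the rest kept the file's name. Tests used lmFit and eBayes (1 residual and 10.3 prior degrees of freedom), two-sided, Benjamini-Hochberg over 20989 features. Both arrays lay on 1 slide, so neither slide nor scan was tested as a batch. The number of arrays limits the precision.

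The genes and lists were chosen with earlier results of these data known. The naming rule took all 7 genes with every probe, the 3 highest and 3 lowest of each tendon, relative and joint list with any gene past the test, up to 2 of each end of each marker list, and the 3 nearest features to each gene. Of the marker lists, the medians not given in the report were 0.11 for bone, 0.25 for mesothelium, 0.05 for fat, 0.20 for urothelium, -0.08 for endothelium and -0.17 for nerve and glia. In these lists 0 genes passed (1 urothelial gene and 0 of the others at an unadjusted p under 0.05).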

Additional observations from a re-analysis of the deposited data

How the results depend on the processing

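Of 8 other settings, each left Prg4 (by its brighter probe, the dimmer one being outside the filter or not chosen), Tnmd and Scx at least 1.5-fold lower on both arrays, left 4 of the 7 genes below 0 on both, and called 0 genes of the 4 tendon, relative and joint lists. Only 4 of these settings alter a probe's ratio. In the others the ratios of Prg4, Tnmd, Scx and Mkx were the same by construction, so those settings could not move them. Of the 4, Agilent's processed signals and the series value table hold nearly the same ratios for most probes past the filter. Their results largely repeat each other. The count of features past the limma test was 27. It was 0 with Agilent's processed signals, after median centring instead of loess, with the series value table and without a filter on dim probes, 10 when a gene's probes past the filter were averaged and 41 when the prior variance followed intensity. Prg4, the 1 gene called among the 7, was not called (0 of the 7) in the first 5 of these settings. The cause was not tested. At least 1.5-fold changes on both arrays numbered 134, and 290 with processed signals and 260 with the value table. Mean ratios over the 4 settings that alter them ranged from -1.74 to -1.33 for the brighter and -0.20 to -0.01 for the dimmer Prg4 probe, -1.27 to -0.98 for Tnmd, -0.97 to -0.84 for Scx and -0.72 to -0.63 for Mkx. With 1 array alone no test can be made. The reported fit is already paired by array, since it uses each array's own ratio of Rbpj-cKO over control, which leaves no further block to add. A slide block was not run, since both arrays share 1 slide. Signal over background limits Comp and the dimmer Prg4 probe.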

Other observations

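The shift with row seen at the Tnmd spots was present in most probes printed as 10 spots. Red over green, after loess, was lower after row 266 for 98.4% of 311 such probes on the male array (median difference -0.06) and for 97.1% of 307 on the female array (median difference -0.24). Scx (row 161), Mkx (row 102) and the brighter Prg4 probe (row 250) have their single spot within the first 266 of the 532 rows, and Fmod (row 311), the dimmer Prg4 probe (row 378), Thbs4 (row 505) and Comp (row 522) after them. The split at row 266 was chosen after the Tnmd spots were seen, and its part in the ratios of single-spot probes was not tested. Among the Tnmd spots, the mean of the arrays was -1.05 within the first 266 rows and -0.97 after them.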
